A study of Mus musculus with 4 samples.

Results

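*H19* and 9 other imprinted growth genes (*Igf2*, *Dlk1*, *Meg3*, *Mest*, *Peg3*, *Plagl1*, *Ndn*, *Grb10* and *Igf2r*) were followed in marrow stromal cells of mice after bone marrow ablation. The 10 genes were taken by symbol, and all 10 were found among the 28006 features of the count tables. *H19* was chosen because it was among the largest rises of reticular cells in the same comparison, so its values in reticular cells, in all mesenchymal cells and between these classes are given as a description, with no test. The other genes were listed to ask whether that difference extended to further imprinted genes, and in which cell types.

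The cells were tdTomato+ cells sorted from femurs of *Cxcl12-iCreER*; *R26R*(tdTomato/+) mice, 7 days after bone marrow ablation and with tamoxifen given 7 days before it. The ablated right femur (ABL) was compared with the untreated left femur (CONT), so all groups shared the genotype and the tamoxifen, and by the study's design the untreated femur came from an operated mouse. Each of 2 biological replicates gave a CONT and an ABL library, 4 in all. Replicate 1 was pooled from several mice and made with Chromium version 2, and replicate 2 with version 3, so that chemistry and replicate cannot be told apart. The Cre driver is a bacterial artificial chromosome transgene of 1 founder line that marks cells active for *Cxcl12* at the time of tamoxifen. The ages of these mice are not given in the sources used here.

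Imprinted genes are expressed mainly from the chromosome of 1 parent, through DNA methylation set in the germ line. Several of them set the pace of fetal growth and fall to low levels after birth. *Igf2* encodes a growth factor expressed from the paternal chromosome, and *H19*, its neighbour, a long non-coding RNA expressed from the maternal one. *Igf2r* encodes the receptor that clears IGF2, and *Grb10* an adaptor that dampens signalling from insulin and IGF receptors. *Dlk1* encodes a transmembrane protein of preadipocytes and other progenitors, and *Meg3* is the maternally expressed non-coding RNA of the same domain. *Mest* encodes a hydrolase-like protein of mesodermal tissue, *Plagl1* and *Peg3* zinc finger proteins, and *Ndn* (necdin) a growth suppressor.

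In the GRCm38 annotation, *H19* lies at chr7:142575529-142578143 on the minus strand and *Igf2* at chr7:142650766-142666816 on the same strand, 72622 bases apart. *Dlk1* (chr12:109452823-109463336) and *Meg3* (chr12:109541001-109571726) are 77664 bases apart on the plus strand. *Mest* is at chr6:30723547-30748465, *Peg3* at chr7:6703892-6730431, *Plagl1* at chr10:13060504-13131694, *Ndn* at chr7:62346569-62350262, *Grb10* at chr11:11930508-12038683 and *Igf2r* at chr17:12682406-12769664. The 3 genes that were higher after ablation in reticular cells of both replicates by at least 3.83-fold, *H19*, *Igf2* and *Mest*, also host microRNAs in RefSeq (GRCm38.p6). The mature sequences are shown because the droplet libraries count the host transcripts only, and the microRNAs themselves were not measured. Capitals mark the seed, bases 2 to 8, and no seed is shared among these 6.
miR-675-5p (*H19*): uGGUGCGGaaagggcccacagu
miR-675-3p (*H19*): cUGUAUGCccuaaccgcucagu
miR-483-5p (*Igf2*): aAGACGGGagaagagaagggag
miR-483-3p (*Igf2*): uCACUCCUccccucccgucuu
miR-335-5p (*Mest*): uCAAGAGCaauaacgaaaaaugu
miR-335-3p (*Mest*): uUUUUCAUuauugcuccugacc

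The miR-675 pair lies in an exon of *H19*, while miR-483 and miR-335 lie outside annotated exons of *Igf2* and *Mest*. *Meg3* holds 3 further mature microRNAs in its exons, with 3 different seeds. RefSeq start site windows of 300 bases were matched for 9 of the 10 genes, all but *H19*. The windows of *Igf2* and *Mest* with most CpG sites (for *Mest*, 1 of 2 that tie) are shown, because both genes passed the test in reticular cells. Capitals mark each CG, the dinucleotide that carries imprinting marks.
*Igf2*, chr7:142658755-142659054, minus strand: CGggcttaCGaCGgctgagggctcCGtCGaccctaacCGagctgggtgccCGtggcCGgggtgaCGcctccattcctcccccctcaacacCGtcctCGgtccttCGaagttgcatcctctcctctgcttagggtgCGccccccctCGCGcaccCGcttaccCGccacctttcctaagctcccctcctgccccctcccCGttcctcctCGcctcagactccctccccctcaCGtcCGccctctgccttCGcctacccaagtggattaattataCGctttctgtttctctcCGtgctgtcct
*Mest*, chr6:30737800-30738099, plus strand: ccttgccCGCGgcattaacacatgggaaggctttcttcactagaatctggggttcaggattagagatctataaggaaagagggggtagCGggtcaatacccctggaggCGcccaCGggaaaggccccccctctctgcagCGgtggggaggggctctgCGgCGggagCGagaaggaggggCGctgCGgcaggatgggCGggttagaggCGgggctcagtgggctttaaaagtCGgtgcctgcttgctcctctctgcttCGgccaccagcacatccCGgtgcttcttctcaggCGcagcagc

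The *Igf2* window held 24 CG sites and the *Mest* window 17, against a median of 7 over 32851 windows of the same length. As many or more were found in 19.98% of all windows for *Igf2* and in 31.4% for *Mest*. Both windows were chosen for their CG sites and the background windows were not, so no excess can be read from this. The other *Igf2* windows held 14, 7 and 2 CG sites, and the other *Mest* windows 17 and 8. The counts do not show which start site was used, and methylation was not measured.

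The libraries held between 22889380 and 44784072 unique molecular identifiers (UMIs), and between 1459 and 3433 called cells with a median of 5714 to 12896 UMIs per cell. CONT and ABL libraries of a replicate shared 5 barcodes in replicate 1 and 1 in replicate 2. A tdTomato UMI was found in 95.7% to 97.6% of mesenchymal cells. Among mesenchymal cells, *Xist*, the transcript of the inactive X chromosome, was found in 49.96% in CONT and 81.4% in ABL for replicate 1, and in 71.9% and 0.0553% in replicate 2. A Y-linked UMI was found in 29.8% in CONT and 15.8% in ABL for replicate 1, and in 26.5% and 70.5% in replicate 2. The femurs of replicate 2 therefore go against being from the same mice. Ablation cannot be told apart there from differences in mouse and in the mix of sexes. Each replicate's values are given side by side. Mesenchymal clusters were named from fixed markers. All 8 reticular markers, *Cxcl12*, *Adipoq*, *Lepr* and *Kitl* among them, were detected in the reticular class of each library. The class was named from these markers, and all 8 pre-osteoblast and all 8 periosteal or fibroblast markers were detected in it too. Reticular cells numbered 1155 in CONT and 410 in ABL for replicate 1, and 1984 and 375 in replicate 2. The other mesenchymal cells numbered 162 and 282 in replicate 1, and 69 and 1433 in replicate 2.

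In reticular cells *H19*, *Igf2* and *Mest* were higher after ablation in both replicates, while the other 7 genes did not pass the test or were too low to be tested. Levels are the counts per 1000000 UMIs of the class (CPM), each with a 95% exact Poisson interval that covers counting error only. *H19* stood at 21.9 CPM (18.3 to 26.1) in CONT and 158 CPM (145 to 173) in ABL of replicate 1. In replicate 2 it stood at 10.5 CPM (9.32 to 11.8) in CONT and 220 CPM (203 to 237) in ABL. Both ABL libraries were above both CONT libraries, and the ratio was 7.23-fold in replicate 1 and 20.9-fold in replicate 2. The fitted log2 fold change of *H19* was 3.55 ± 0.28 (SE), with no test because the gene was chosen on this contrast. CPM is relative to all UMIs of the class, so more *H19* RNA per cell and less of other RNA cannot be told apart.

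*Igf2*, the growth factor gene beside *H19*, rose in reticular cells. Its level was 24.5 CPM (20.6 to 28.9) in CONT and 190.4 CPM (175 to 206) in ABL for replicate 1, and 28.2 CPM (26.2 to 30.3) in CONT and 166 CPM (152 to 181) in ABL of replicate 2. The CONT libraries lay close together, and the ABL libraries did not overlap them. The log2 fold change of *Igf2* was 2.65 ± 0.26 (SE, 2 libraries per condition; edgeR quasi-likelihood F test with Benjamini-Hochberg adjustment over all genes, adjusted p = 1.86e-21). The log2 ratio was 2.81 in replicate 1 and 2.49 in replicate 2. *Mest*, a paternally expressed gene on chromosome 6, rose as well. It stood at 6.56 CPM (4.64 to 9.0) in CONT and 25.1 CPM (19.8 to 31.4) in ABL of replicate 1. In replicate 2 *Mest* stood at 4.29 CPM (3.54 to 5.16) in CONT and 67.3 CPM (58.4 to 77.2) in ABL. The difference was larger in replicate 2, at a log2 ratio of 3.91 against 1.80 in replicate 1. The fit gave *Mest* a log2 fold change of 3.03 ± 0.29 (SE, edgeR, adjusted p = 1.84e-17). These fits borrow variance from other genes, with 190.5 total degrees of freedom for *Mest* and 11419 for *Igf2*. Their SE and p therefore do not measure the spread between the 2 replicates.

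Of the 8 genes other than *H19* that were tested in reticular cells, 2 were called higher and 0 lower. Over all 11419 genes tested, 2.68% were called higher and 2.69% lower. With the replicate left out of the edgeR model, 0 genes were called, against 390 genes at an unadjusted p under 0.05, and the adjusted p was 0.460 for *Igf2* and 0.957 for *Mest*. DESeq2 with the replicate as a block kept both (adjusted p = 2.19e-15 for *Igf2* and 5.64e-06 for *Mest*). In cells with a Y-linked UMI and no *Xist* UMI, 44 of them in ABL of replicate 1, *Mest* still passed (log2 fold change 2.51, adjusted p = 0.0155, edgeR) and *Igf2* did not (log2 fold change 1.51, adjusted p = 0.104).

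**Figure D1:**
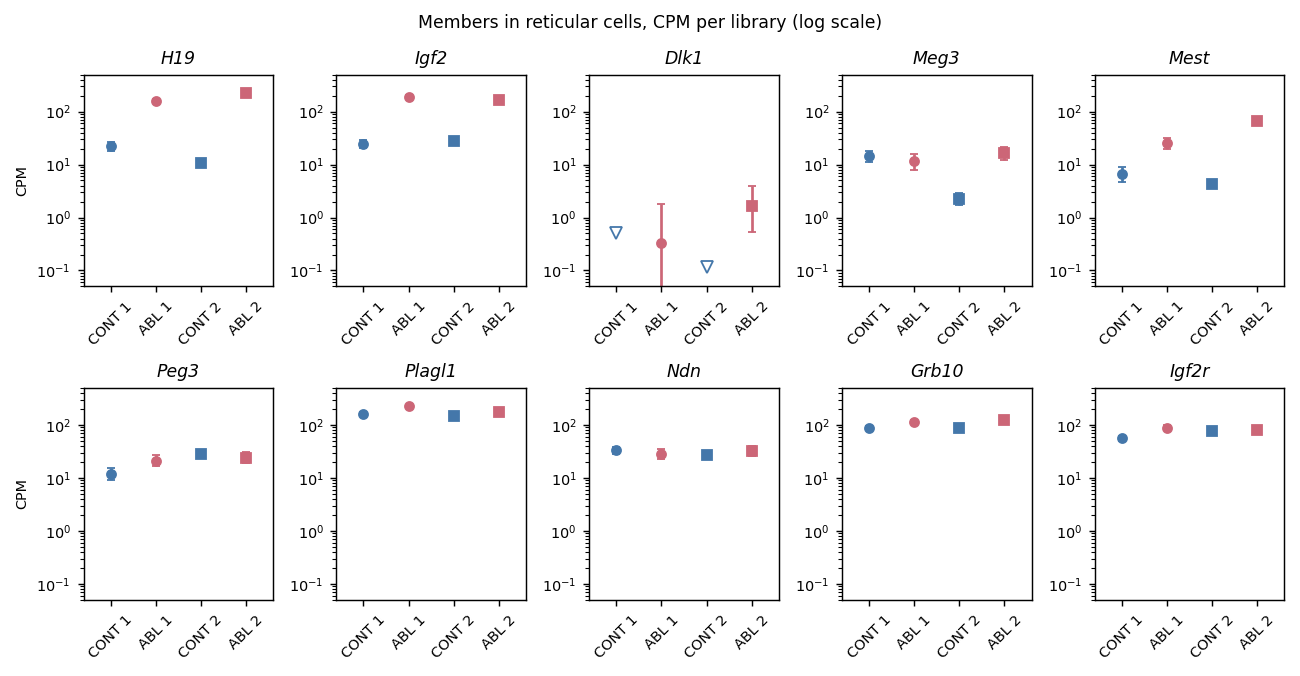
Level of each of the 10 genes in reticular cells of the 4 libraries (CPM on a log axis), with CONT in blue, ABL in red, replicate 1 as circles and replicate 2 as squares. Bars are 95% exact Poisson intervals, and open triangles mark a library at 0, drawn at the level of 3 counts. *H19*, *Igf2* and *Mest* have both ABL points above both CONT points, and so, by less, do *Plagl1*, *Grb10* and *Igf2r*. How many of all genes do so was not counted. *Dlk1* has no UMI in either CONT library.

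The neighbour pair *Dlk1* and *Meg3* on chromosome 12 did not follow *H19* and *Igf2* across both replicates. *Dlk1* had 0 UMIs in both CONT libraries of reticular cells, 1 in ABL of replicate 1 and 5 in ABL for replicate 2, and was removed by the filter on low counts. *Meg3* stood at 14.3 CPM (11.4 to 17.8) in CONT and 11.4 CPM (7.96 to 15.9) in ABL of replicate 1, where the intervals overlapped. In replicate 2 it stood at 2.24 CPM (1.71 to 2.89) in CONT and 16.5 CPM (12.2 to 21.8) in ABL. Its log2 fold change was 1.17 ± 0.86 (SE, edgeR, adjusted p = 0.635), with a ratio of -0.47 in replicate 1 and 2.82 in replicate 2, so the sign depended on the replicate. Without the robust step of edgeR the adjusted p of *Meg3* was 0.0200.

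The IGF clearance and signalling genes differed less. *Grb10* stood at 86.6 CPM in CONT and 113 CPM in ABL for replicate 1, and at 85.5 and 124 CPM in replicate 2. Both ABL libraries were above both CONT libraries, yet the log2 fold change of 0.36 (95% interval -0.12 to 0.85) did not pass (adjusted p = 0.523, edgeR). *Igf2r* stood at 55.9 CPM in CONT and 88.5 CPM in ABL for replicate 1, and at 77.6 and 81.2 CPM in replicate 2. Its log2 fold change was 0.26 (95% interval -0.20 to 0.72, adjusted p = 0.681, edgeR).

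*Plagl1*, a zinc finger factor of the fetal growth network, was 164 CPM in CONT and 223 CPM in ABL for replicate 1, and 148 and 177 CPM in replicate 2. It did not pass the test, its log2 fold change being 0.25 (95% interval -0.29 to 0.79, adjusted p = 0.755, edgeR). *Peg3* moved in opposite directions, from 11.9 to 21.2 CPM within replicate 1 and from 28.3 to 24.1 CPM in replicate 2. Its log2 fold change was 0.15 (95% interval -0.36 to 0.66, adjusted p = 0.867, edgeR). *Ndn* also changed sign between replicates, with 33.1 CPM in CONT and 28.1 CPM in ABL for replicate 1, and 26.9 and 32.3 CPM in replicate 2. The log2 fold change of *Ndn* was -0.08 (95% interval -0.55 to 0.40, adjusted p = 0.933, edgeR). The median log2 fold change of the 8 tested genes other than *H19* was 0.31, against -0.01 over all genes.

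**Figure D2:**
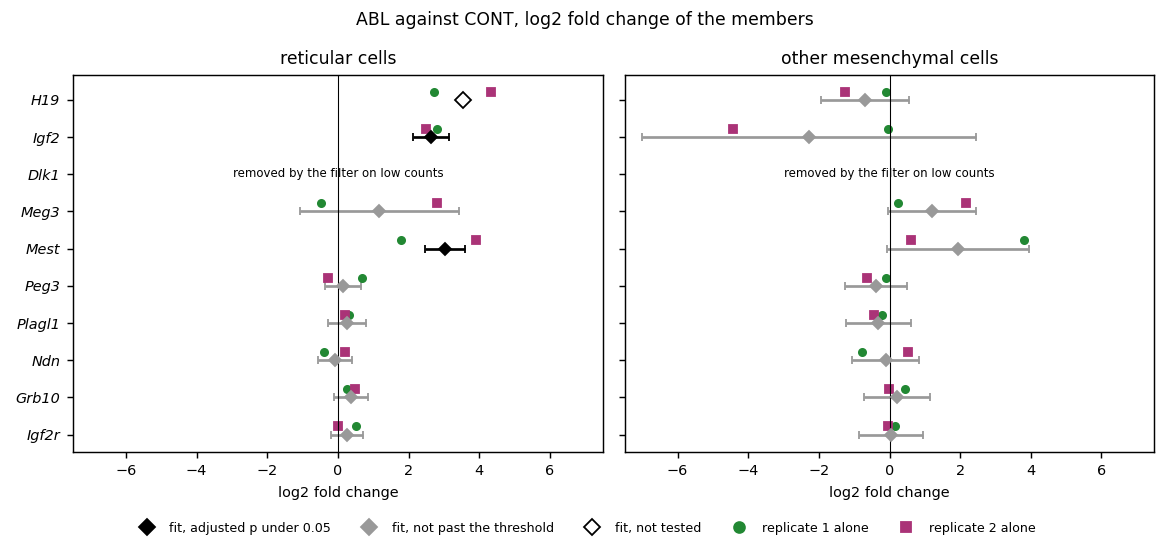
Log2 fold change of each gene in ABL against CONT, in reticular cells on the left and in the other mesenchymal cells on the right. Diamonds are the fit with 95% intervals (black where the adjusted p was under 0.05, grey where it was not, open where not tested), circles the ratio in replicate 1 and squares that in replicate 2. *Igf2* and *Mest* are black in reticular cells, and no gene is black in the other mesenchymal cells.

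The difference in reticular cells was seen within clusters. The 10 genes, the further imprinted and IGF genes listed, sex-linked genes and transgenes (83 genes in all) were kept out of clustering, which gave 5 reticular clusters in replicate 1 and 7 in replicate 2. *Igf2*, *Mest* and *Grb10* were higher in ABL than in CONT cells of the same cluster in 12 of 12 clusters. *H19* was higher in 11 and at 0 in both conditions in the remaining one, a cluster of 25 CONT and 20 ABL cells led by the interferon-stimulated genes *Cxcl10*, *Cxcl9*, *Rsad2*, *Ifit1* and *Isg15*. *Plagl1* and *Igf2r* were higher in 10 of 12, *Ndn* in 7, *Peg3* in 6 and *Meg3* in 5. The clusters share libraries, so these counts describe how even the difference was and are not replicates. How many of all genes were higher in as many clusters was not counted. *Grb10* reached 12 of 12 without passing the test, so such a count does not set a gene apart.

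*H19* in ABL cells ranged from 62.9 to 284 CPM over the clusters of replicate 1, against 1.17 to 41.1 CPM in CONT cells. In replicate 2 the range was 0 to 718 CPM in ABL cells, against 0 to 17.3 CPM in CONT cells. *Igf2* ranged from 115 to 303 CPM in ABL cells of replicate 1 and from 90.5 to 459 CPM in replicate 2. In CONT cells *Igf2* stayed between 15.6 and 31.5 CPM in replicate 1 and between 4.90 and 69.3 CPM in replicate 2. *Mest* was even across the ABL cells of replicate 1 (23.3 to 28.3 CPM) and uneven in replicate 2 (17.5 to 219 CPM), where the highest cluster was one led by *Gm26917*, *Spp1* and *Kcnk2*.

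**Figure D3:**
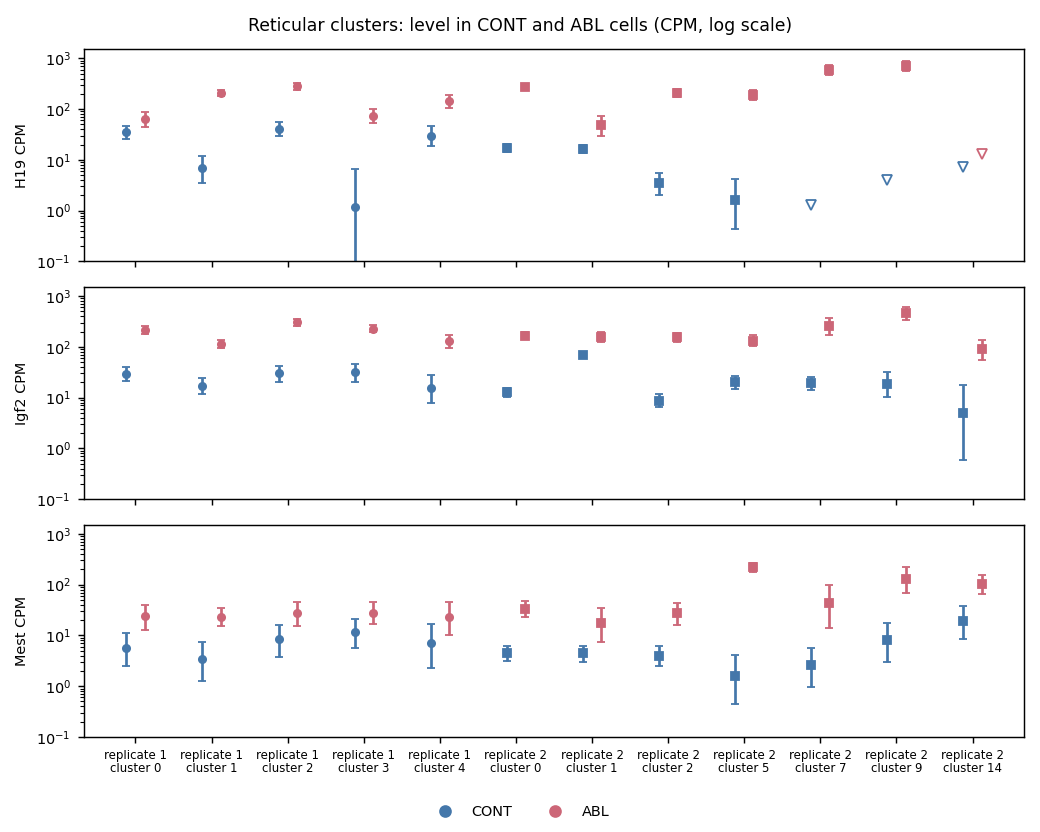
*H19*, *Igf2* and *Mest* in CONT (blue) and ABL (red) cells of each of the 12 reticular clusters, 5 of replicate 1 (circles) and 7 of replicate 2 (squares), in CPM on a log axis. Bars are 95% exact Poisson intervals and open triangles mark clusters at 0, drawn at the level of 3 counts. ABL cells are above CONT cells in all 12 clusters for *Igf2* and *Mest* and in 11 for *H19*.

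*H19* came from few reticular cells, in contrast to *Plagl1* or *Grb10*. Its UMIs were found in 19 of 1155 CONT cells and 56 of 410 ABL cells of replicate 1, and in 17 of 1984 CONT cells and 53 of 375 ABL cells of replicate 2. A single cell held up to 57 *H19* UMIs in ABL of replicate 1 and up to 90 in ABL of replicate 2. The tenth of ABL cells with most *H19* held 96.9% of its UMIs in replicate 1 and 97.3% in replicate 2. For *Igf2* that share was 64.0% in ABL for replicate 1, and for *Plagl1* 37.3%.

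Cells were then thinned to 2000 UMIs, so that depth was equal, and no cell of these classes was left out. *H19* was found in 1.21% of reticular cells in CONT (95% exact binomial interval 0.664 to 2.03) and 8.29% in ABL (5.81 to 11.4) of replicate 1. In replicate 2 it was found in 0.302% (0.111 to 0.657) and 10.7% (7.73 to 14.2). *Igf2* reached 4.76% of the reticular cells in CONT and 21.0% in ABL for replicate 1, and in 4.44% and 17.1% in replicate 2. *Mest* was found in 0.779% and 3.90% in replicate 1, and in 0.706% and 8.27% in replicate 2. The share of cells was thus higher in ABL for all 3 genes in both replicates.

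Hematopoietic cells, which should lack these transcripts, served as the background of free RNA. Their *H19* share was 0.150% in CONT and 1.69% in ABL for replicate 1, and 0.307% and 0.163% in replicate 2. This background was thus higher in ABL in replicate 1, as the reticular share was, and not in replicate 2. The *H19* share of reticular cells in CONT of replicate 2 (0.302%) was near that of hematopoietic cells there, which was 1 of 326 cells (interval 0.00777 to 1.70). Before thinning, the reticular cells of that library held 277 *H19* UMIs in 17 cells, up to 86 in 1 cell. The part of free RNA in them was not tested cell by cell. Median depth before thinning was 4489 UMIs in CONT and 6622 in ABL reticular cells of replicate 1, and 12717 and 7604 in replicate 2, and 7129, 7560, 14601 and 11104 in the hematopoietic cells of these libraries. Not thinned, *H19* was found in 1.65% of reticular cells in CONT of replicate 1. After subtraction of the profile of near-empty droplets, the log2 fold change in reticular cells was 3.57 for *H19*, 2.65 for *Igf2* and 3.03 for *Mest*.

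**Figure D4:**
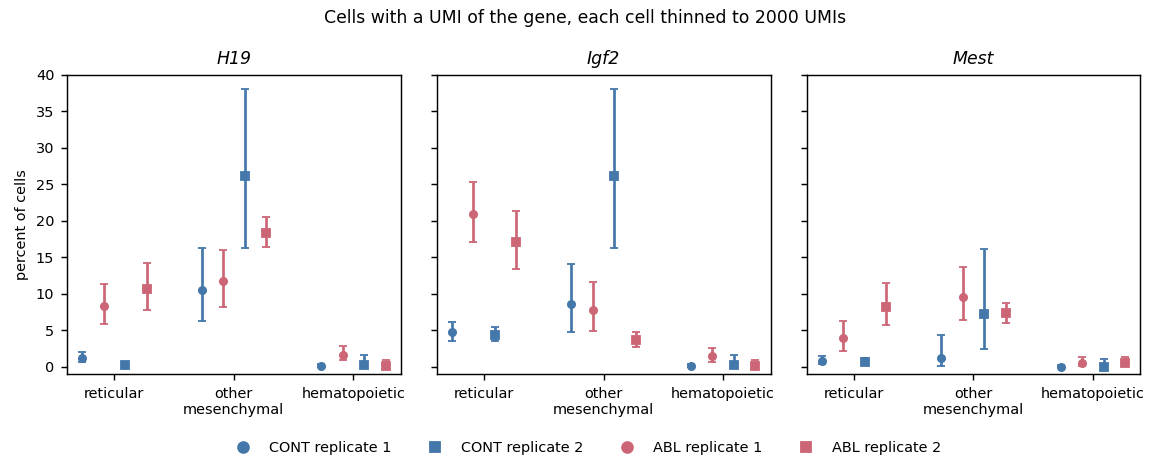
Percent of cells with a UMI of *H19*, *Igf2* or *Mest* after every cell was thinned to 2000 UMIs, in reticular, other mesenchymal and hematopoietic cells of the 4 libraries. Bars are 95% exact binomial intervals for counting error. Reticular cells of ABL lie above those of CONT in both replicates, and hematopoietic cells stay at or under 1.69%.

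ABL reticular cells with *H19* held *Igf2* more often than those without it. Of ABL reticular cells with a thinned *H19* UMI, 47.1% also had *Igf2* in replicate 1 (34 cells, 95% interval 29.8 to 64.9), against 18.6% (14.8 to 22.9) of the 376 cells without *H19*. In replicate 2 the shares were 37.5% (40 cells, 22.7 to 54.2) and 14.6% (335 cells, 11.02 to 18.9). *Mest* was found in 5.88% (0.720 to 19.7) of cells with *H19* and 3.72% (2.05 to 6.17) of cells without in ABL of replicate 1, and in 17.5% (7.34 to 32.8) and 7.16% (4.64 to 10.5) in ABL of replicate 2. Its intervals overlap in both replicates. Cells of 1 library are not replicates, so these shares are a description.

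Reticular markers were compared in the same ABL cells. *Cxcl12*, the chemokine of reticular cells, was found in 100% of cells with *H19* and 99.7% of those without in replicate 1, and in 87.5% and 94.6% in replicate 2. *Lepr*, the leptin receptor gene, was found in 61.8% against 72.3% in replicate 1 and 40% against 61.5% in replicate 2. *Kitl*, the stem cell factor gene, was found in 61.8% against 63.0% in replicate 1 and 65% against 76.7% in replicate 2. *Adipoq*, the adiponectin gene, was found in 82.4% of ABL cells with *H19* and 90.7% of those without in replicate 1, and in 52.5% and 76.1% in replicate 2. *Aspn*, a periosteal and fibroblast matrix gene, was found in 8.82% against 1.33% in replicate 1 and in 32.5% against 5.37% in replicate 2. *Col3a1*, a fibrillar collagen gene of the same list, was found in 91.2% against 72.1% and in 95% against 76.1%, and *Ogn* in 67.6% against 64.9% and in 67.5% against 57.6%. *Dpt* of that list was rare, in 2.94% against 0.266% in replicate 1 and 0% against 0.299% in replicate 2, as was *Tnn*, with 0% of cells with *H19* in both. The cells with *H19* were few, 34 in replicate 1 and 40 in replicate 2. The 95% exact binomial intervals of cells with and without *H19* overlapped for each of these genes, save *Adipoq*, *Aspn* and *Col3a1* in replicate 2. Cells with *Mest* in ABL of replicate 2 (31 cells) had *Adipoq* in 29.0% against 77.6% of those without. *Lepr* was in 29.0% against 61.9% and *Aspn* in 32.3% against 6.10%, and these intervals did not overlap. For *Cxcl12*, *Kitl* and *Col3a1* they did. In ABL of replicate 1 (16 cells) *Adipoq* was in 87.5% against 90.1%, *Lepr* in 62.5% against 71.8% and *Aspn* in 6.25% against 1.78%, with overlap. The summed level of the 8 periosteal or fibroblast markers in reticular cells was 1103 CPM in CONT and 1889 CPM in ABL for replicate 1, and 912 and 2482 CPM in replicate 2, with none of the 8 at 0. Among reticular cells without a UMI of 6 of these markers (*Aspn*, *Dpt*, *Clec3b*, *Mfap5*, *Pi16* and *Fbln1*), a choice made after the data were seen, the log2 fold change was 3.83 for *H19*, 2.18 for *Igf2* (adjusted p = 1.02e-11, edgeR) and 2.38 for *Mest* (adjusted p = 2.88e-06). The cells without a UMI of these 6 markers numbered 498 in CONT and 143 in ABL for replicate 1, and 608 and 134 in replicate 2. *Col3a1* and *Ogn* of the same list were not used in this choice, and the part of fibroblast-like cells left in it was not tested. Other lists also moved with the condition. The 8 pre-osteoblast markers summed to 1613 CPM in CONT and 3898 CPM in ABL for replicate 1, and 1922 and 3809 CPM in replicate 2, and their part in the result was not tested.

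Summed over the other mesenchymal cells, neither *H19* nor *Igf2* was higher after ablation. *H19* was higher in the other mesenchymal cells of CONT femurs than in reticular cells of the same libraries. It stood at 274 CPM (245 to 306) in CONT and 259.5 CPM (242 to 278) in ABL of replicate 1, where the intervals overlapped. In replicate 2 it stood at 822 CPM (773 to 873) in CONT, from 69 cells, and 310.1 CPM (303 to 317) in ABL. The log2 fold change of *H19* in these cells was -0.69 ± 0.59 (SE, edgeR, adjusted p = 0.765). *Igf2* was 75.6 CPM in CONT and 74.6 CPM in ABL for replicate 1, and 642 and 27.1 CPM in replicate 2. Its log2 fold change was -2.28 with a 95% interval of -7.01 to 2.46 (adjusted p = 0.751, edgeR), and 1 CONT cell of replicate 2 alone held 238 of the 821 *Igf2* UMIs. In replicate 2, 1 cluster high in both genes, described below, held 35 of the 69 CONT and 51 of the 1433 ABL cells. *H19* stood at 833 CPM in CONT and 654 CPM in ABL of periosteal or fibroblast-like cells in replicate 1. In cycling cells of replicate 2 it stood at 0 CPM in CONT, from 14 cells, and 461 CPM in ABL. The part of the cell mix in the summed values was not tested.

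*Mest* was higher in ABL in the other mesenchymal cells too, though it did not pass there. It stood at 6.87 CPM (2.97 to 13.5) in CONT and 98.7 CPM (87.7 to 111) in ABL of replicate 1. In replicate 2 it stood at 46.9 CPM (35.8 to 60.4) in CONT and 64.5 CPM (61.3 to 67.9) in ABL. In ABL of replicate 1, 1 cell alone held 81 of the 295 *Mest* UMIs, against 8 UMIs in CONT. The fitted log2 fold change of *Mest* was 1.95 ± 0.81 (SE, edgeR, adjusted p = 0.503), and it passed with no filter on low counts (adjusted p = 0.00398) and at clustering resolution 0.4 (adjusted p = 0.00276). *Meg3* stood at 106 and 128 CPM in replicate 1 and at 119.6 and 481 CPM in replicate 2, and its log2 fold change was 1.21 ± 0.59 (SE, adjusted p = 0.516, edgeR). In ABL of replicate 1, 1 of these cells held 131 of its 382 UMIs. Of the 9 genes tested in these cells 0 passed, against 0.257% of all 10497 genes called higher and 0.343% lower. Without the replicate block edgeR called 0 genes here, with 484 at an unadjusted p under 0.05, and DESeq2 with the block called 122.

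The difference between both classes was fitted directly. The ABL effect was 4.17 (log2) higher in reticular than in other mesenchymal cells for *H19*, with no test. For *Igf2* it was 4.94 higher, but with an adjusted p of 0.685 (edgeR, interaction of class and condition). Without the robust step this p was 0.0165, and with DESeq2 1.15e-07. Of all 11863 genes tested 1.32% had a higher and 0.287% a lower effect in reticular cells, and 0 of the 8 genes other than *H19* passed. The composition of the other mesenchymal cells differed between CONT and ABL, and its part in these differences was not tested.

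Taken over all mesenchymal cells, a total that does not depend on how they were divided, *Mest* and *Dlk1* passed. This total mixes classes in different parts, with 1984 reticular and 69 other cells in CONT but 375 and 1433 in ABL of replicate 2, and the part of this mix in its differences was not tested. *Mest* rose from 6.61 CPM (4.84 to 8.82) to 61.5 CPM (55.4 to 68.0) in replicate 1 and from 6.27 CPM (5.37 to 7.28) to 64.9 CPM (61.8 to 68.1) in replicate 2. The replicates gave close log2 ratios of 3.13 and 3.37, and the fit 3.26 ± 0.44 (SE, edgeR, adjusted p = 1.43e-05). DESeq2 gave *Mest* an adjusted p of 9.52e-08. In ABL of replicate 1, 1 cell held 81 of the 372 *Mest* UMIs.

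*Dlk1* had 0 UMIs in all CONT mesenchymal cells and 82 and 45 UMIs in ABL of replicates 1 and 2. This was at least 31.4-fold higher in replicate 1 and at least 16.2-fold in replicate 2, taking 3 counts in the CONT library as the floor. Other mesenchymal cells held 81 of the 82 and 40 of the 45 UMIs. Within those cells the bound was 10.5-fold in replicate 1, and in replicate 2 the ABL level of 1.77 CPM was under the CONT floor, so no rise was detectable there at this depth. Over all mesenchymal cells *Dlk1* passed in edgeR (adjusted p = 4.86e-05) and not in DESeq2 (adjusted p = 0.304). With 0 CONT UMIs it came through the filter on low counts on its ABL counts alone, so the call says no more than these counts. The UMIs sat in few cells, 6 of the 282 other mesenchymal cells in ABL of replicate 1, of which 1 held 61 of their 81 UMIs.

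*H19* over all mesenchymal cells was 64.1 CPM in CONT and 208 CPM in ABL for replicate 1, and 48.2 and 299 CPM in replicate 2, with a log2 fold change of 2.13 ± 0.54 (SE) and no test. *Igf2* stood at 33.1 CPM in CONT and 133 CPM in ABL for replicate 1, and at 56.6 CPM in CONT and 43.5 CPM in ABL of replicate 2 (log2 fold change 0.76, adjusted p = 0.593, edgeR). *Meg3* stood at 29.6 and 68.9 CPM in replicate 1 and at 7.68 and 426 CPM in replicate 2. Its log2 fold change of 3.47 missed the threshold (adjusted p = 0.697, edgeR) and passed with DESeq2 (adjusted p = 0.000707) and with no filter on low counts (adjusted p = 0.00367). *Peg3* had a log2 fold change of 0.90 (0.07 to 1.72, adjusted p = 0.260, edgeR). Of the 9 genes other than *H19*, 2 were called higher and 0 lower, against 2.27% and 1.35% of all 13730 genes. Of these calls, that of *Dlk1* is for a gene that came through the filter on its ABL counts alone.

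The levels of *H19* differed between classes as well as between conditions. Among named classes of at least 10 cells in a library, *H19* was highest in periosteal or fibroblast-like cells of replicate 1, at 833 CPM (743 to 930) in CONT and 654 CPM (606 to 705) in ABL. Unnamed cells were left out of this order, among them a cluster of replicate 2, described below, that was higher in CONT. Chondrocyte-like cells of ABL followed in replicate 2, at 484 CPM (448 to 523), whose interval overlapped that of cycling cells of the same library, at 461 CPM (437 to 486). Reticular cells of ABL in replicate 2 (220 CPM) and chondrocyte-like cells of ABL in replicate 1 (193 CPM, 145 to 251) overlapped as neighbours. Below them were reticular cells of ABL in replicate 1 (158 CPM) and periosteal or fibroblast-like cells of ABL in replicate 2 (140.2 CPM, 131 to 150), whose intervals also overlapped. Reticular cells of CONT were lower than all of these, at 21.9 and 10.5 CPM. Cycling cells of CONT in replicate 2 were at 0 CPM, from 14 cells, and no cells of replicate 1 were named cycling. The difference between cycling cells of ABL and CONT was not tested.

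Osteoblast-like cells of both replicates and joint lining-like cells of replicate 2 were low in *H19* after ablation. Osteoblast-like cells of ABL had 4.25 CPM (0.877 to 12.4) in replicate 1 and 4.38 CPM (1.19 to 11.2) in replicate 2, while the near-empty droplets of these libraries had 94.0 and 181 CPM. Joint lining-like cells of ABL in replicate 2, led by *Prg4*, had 3.69 CPM (1.91 to 6.45). No cluster of replicate 1 was named joint lining-like, and its cluster led by *Prg4*, named periosteal or fibroblast-like, had 699 CPM in ABL. Endothelial cells had 2.24 CPM in CONT of replicate 1, 0 UMIs in CONT of replicate 2 and 25.9 CPM (16.9 to 38.0) in ABL of replicate 2. All hematopoietic cells together had 1.81 CPM in CONT and 6.95 CPM in ABL for replicate 1, and 0.172 and 2.83 CPM in replicate 2.

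**Figure D5:**
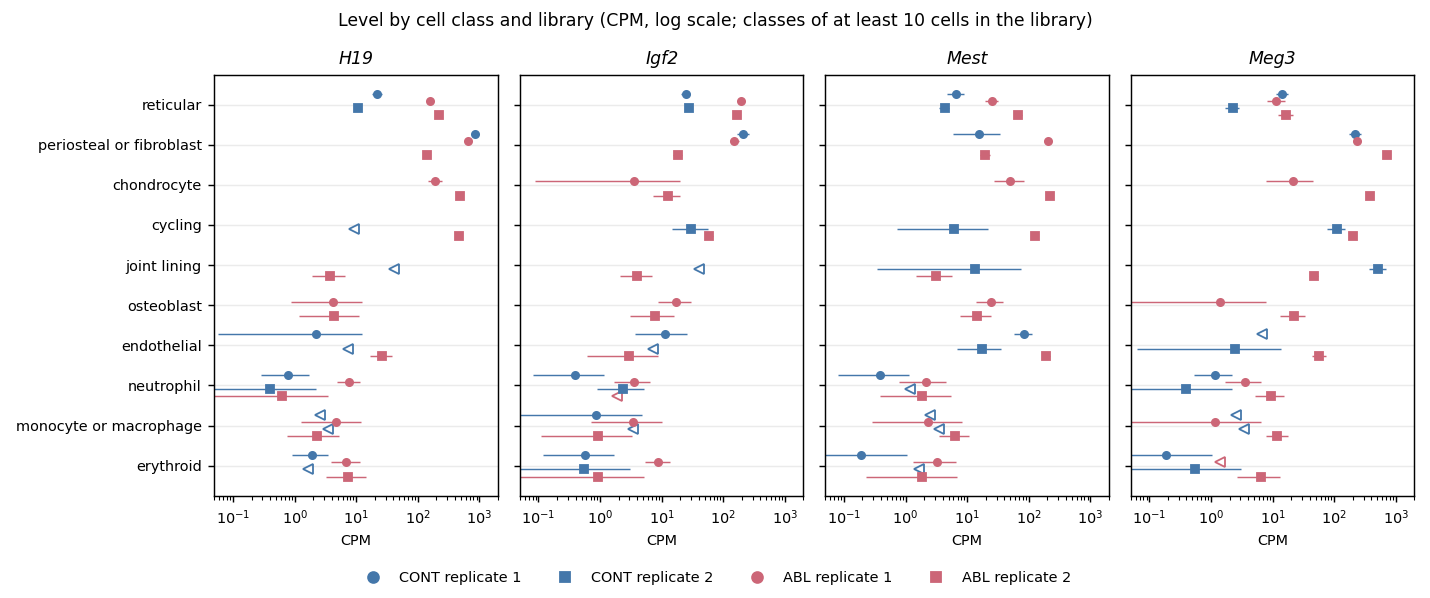
Level of *H19*, *Igf2*, *Mest* and *Meg3* in named classes of at least 10 cells in a library (CPM on a log axis), with CONT in blue, ABL in red, replicate 1 as circles and replicate 2 as squares. Unnamed cells are not shown. Bars are 95% exact Poisson intervals and open triangles mark a library at 0, drawn at the level of 3 counts. *H19* is above 100 CPM in periosteal or fibroblast-like cells and in chondrocyte-like, cycling and reticular cells of ABL, and under 10 CPM in osteoblast-like and joint lining-like cells of ABL.

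Most mesenchymal *H19* lay outside reticular cells in every library. Reticular cells held 28.5% of the mesenchymal *H19* UMIs in CONT and 38.5% in ABL for replicate 1, and 20.8% and 8.69% in replicate 2, while they held 83.3%, 50.6%, 95.4% and 11.8% of all mesenchymal UMIs in the same order. For *Igf2* the reticular share was 61.7% and 72.3% in replicate 1 and 47.5% and 45.1% in replicate 2. Reticular cells were thus below their share of UMIs for *H19* in all 4 libraries, and above it for *Igf2* in both ABL libraries.

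A few clusters held the highest levels of *H19* and *Igf2*. In replicate 1 the cluster led by *Prg4*, *Ccl21a*, *Aspn*, *Dio2* and *Tnn* (58 CONT and 88 ABL cells, named periosteal or fibroblast-like) had 958 CPM of *H19* in CONT and 699 CPM in ABL. *Igf2* in this cluster was 227 and 159.9 CPM, while *Mest* was 18.2 and 212 CPM. In replicate 2 an unnamed cluster led by *Dio2*, *Mfap4*, *Igf2*, *Tnmd* and *Cpxm2* (35 CONT and 51 ABL cells) had 1585 CPM of *H19* in CONT and 614 CPM in ABL, 1175 and 152 CPM of *Igf2*, 41.6 and 145 CPM of *Mest*, and 53.9 and 1311 CPM of *Meg3*. In both clusters *H19* and *Igf2* were lower and *Mest* and *Meg3* higher in ABL cells, a difference that was not tested. *H19* was among the 10 leading genes of the first cluster and *Igf2* among those of the second.

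*Meg3*, *Mest* and *Dlk1* were also found in vascular classes. *Meg3* reached 1096 CPM (759 to 1531) in CONT and 1838 CPM (1532 to 2187) in ABL in pericyte or smooth muscle-like cells of replicate 1, from 8 and 9 cells, and 717 CPM (697 to 738) in periosteal or fibroblast-like cells of ABL in replicate 2. *Mest* was found in endothelial cells, at 82.9 CPM (58.4 to 114) in CONT of replicate 1, 17.2 CPM (6.90 to 35.4) in CONT and 190.4 CPM (164 to 219) in ABL of replicate 2. *Dlk1* in ABL of replicate 1 was highest in the 9 pericyte or smooth muscle-like cells, at 232 CPM (132 to 376), from 16 UMIs.

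Hematopoietic classes were tested where all 4 libraries had at least 10 cells. In monocytes or macrophages 1 of the 10 genes was tested, *Igf2r*, and it rose from 6.77 CPM (2.92 to 13.3) to 45.3 CPM (32.2 to 61.9) in replicate 1 and from 16.0 CPM (8.77 to 26.9) to 28.9 CPM (22.2 to 36.9) in replicate 2. The intervals overlapped in replicate 2. On its CONT counts alone *Igf2r* would not have come through the filter on low counts in this class, so its call says little more than these counts. The log2 fold change of *Igf2r* was 1.72 ± 0.49 (SE, edgeR, adjusted p = 0.00754; 0.229 with no replicate block), in a class where 6.33% of 8029 genes were called higher and 4.98% lower. *Igf2r* was also higher in near-empty droplets of ABL, at 25.8 CPM in CONT and 60.8 CPM in ABL of replicate 1 and 55.6 and 76.8 CPM in replicate 2, and the part of free RNA in this difference was not tested.

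In erythroid cells *H19* had 10 UMIs (1.89 CPM) in CONT and 15 UMIs (6.93 CPM) in ABL for replicate 1, and 0 and 8 UMIs (7.44 CPM) in replicate 2. The log2 fold change of 2.56 missed the threshold (adjusted p = 0.0564, edgeR). In these cells *H19* came through the filter on low counts on its ABL counts alone, so this p says little more than these counts. *H19* was also higher in near-empty droplets of ABL, and the part of free RNA here was not tested. Of the 4 genes tested in erythroid cells 0 passed, against 0.31% of 7422 genes called higher and 0.0674% lower. In neutrophils 3 of the 10 genes were tested and 0 passed (*Plagl1*, *Grb10* and *Igf2r*, edgeR), against 0.0352% of 8532 genes higher and 0% lower.

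Further imprinted genes were called in both directions in reticular cells. Of 42 other imprinted genes in the files 23 were tested, and 2 were called higher and 3 lower, against 2.68% and 2.69% of all genes, with a median log2 fold change of -0.11. *Slc38a4*, an amino acid transporter gene, rose from 0.690 to 5.55 CPM within replicate 1 and from 0.418 to 7.26 CPM in replicate 2 (log2 fold change 3.59 ± 0.67 SE, adjusted p = 7.52e-06, edgeR). *Dio3*, a thyroid hormone inactivating enzyme gene of the *Dlk1* and *Meg3* domain, rose from 3.11 to 12.7 CPM and from 0.836 to 6.27 CPM (log2 fold change 2.34 ± 0.47 SE, adjusted p = 5.96e-05). Both stood on few counts, with 4 and 11 CONT UMIs for *Slc38a4* and 18 and 22 for *Dio3*. In reticular cells *Slc38a4* came through the filter on low counts on its ABL counts alone. *Dio3* would not have come through it on its CONT counts alone. Their calls therefore say little more than these counts.

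The 3 imprinted genes that fell were *Cobl*, an actin nucleator gene beside *Grb10* (log2 fold change -2.11 ± 0.31 SE, adjusted p = 3.56e-09, edgeR), *Zrsr1*, a splicing factor gene (-0.93 ± 0.29, adjusted p = 0.0315), and *Impact*, a translational regulator gene (-0.74 ± 0.24, adjusted p = 0.0360). *Cobl* went from 14.0 to 4.57 CPM within replicate 1 and from 39.0 to 7.92 CPM in replicate 2. In all mesenchymal cells *Slc38a4* (log2 fold change 2.74, adjusted p = 0.0131) and *Cobl* (-2.85, adjusted p = 0.000218) were the 2 of 31 tested that passed, against 2.27% of all genes higher and 1.35% lower. In other mesenchymal, erythroid and neutrophil cells 0 of the 19, 9 and 11 tested passed, where at most 0.343%, 0.31% and 0.0352% of all genes were called in a direction, so these counts say little about the list.

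The genes of the IGF pathway were read from the same fit in reticular cells. Of 8 genes for IGF1, its receptors, adaptors and the IGF2 mRNA-binding proteins, 7 were tested, 0 passed, and their median log2 fold change was -0.03. *Igf1r*, the receptor that carries the IGF2 signal, stood at 65.1 CPM in CONT and 68.6 CPM in ABL for replicate 1, and at 65.4 and 75.9 CPM in replicate 2 (log2 fold change 0.05, adjusted p = 0.961, edgeR). Of 9 genes of imprint maintenance, such as *Trim28* and *Dnmt1*, 8 were tested, 0 passed, and the median was 0.08. With 2.68% of all genes higher and 2.69% lower, 0 of 7 and 0 of 8 do not set these lists apart. In monocytes or macrophages *Igf1* (log2 fold change 2.32, adjusted p = 1.75e-05), *Dnmt3a* (2.58, adjusted p = 8.60e-08) and *Impact* (1.46, adjusted p = 0.00664, all edgeR) were called higher. They were 1 of 4 IGF genes, 1 of 7 maintenance genes and 1 of 11 other imprinted genes tested, in a class with 6.33% of all genes higher and 4.98% lower.

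Across 38 sums of a named class and library, the 5 genes most like *H19* in log2(CPM + 10) were *Itm2a* (Pearson r = 0.86), *Mgp* (0.86), *Tgfb2* (0.85), *Smoc2* (0.83) and *Thbs2* (0.83), of 6032 genes with at least 20 CPM on average. Unnamed cells, with the cluster of replicate 2 high in *H19* and *Igf2* among them, were left out of these sums. *Igf2* was at rank 16 (0.78), *Grb10* at 34 (0.74), *Mest* at 36 (0.73) and *Meg3* at 143 (0.64). The sums share libraries and include classes without any mesenchymal transcripts, so r is a description with no test.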

How the data were processed

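Droplet-based single cell RNA-seq was analysed from 4 libraries of sorted tdTomato+ femur cells. The deposited values are counts, UMIs per gene and barcode that the authors made with Cell Ranger on mm10 with eGFP and tdTomato sequences added, with every barcode kept. Cells were called by the study's filter (500 genes and at most 20% mitochondrial UMIs for version 2, 1000 genes and 15% for version 3) and a UMI minimum of 1 in 10 of the 99th percentile of the 3000 largest barcodes. Called cells held 56.7% to 85.3% of UMIs. Doublets (0.0832% to 2.07% of cells by Scrublet in scanpy 1.11.5) were kept, and their removal was an alternative. Because so few were called in 1 library, the caller may not have worked there.

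Cells were clustered with Seurat 5.3.0 (2000 variable genes, 30 components, resolution 0.8, and 1.5 within libraries) and named from marker lists. Naming thresholds and the resolution within libraries were set after the data were seen. UMIs were summed per library and class. The sums were tested in R 4.3.3 with edgeR 4.0.16 (quasi-likelihood F test, TMM, filterByExpr, robust, replicate as a block, Benjamini-Hochberg over all genes, threshold 0.05). A class needed 10 cells in every library, and 1 residual degree of freedom was left. Alternatives included DESeq2 1.42.0. Exact tests were not used, since 2 against 2 libraries give a two-sided permutation p of at least 0.333.

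The block was kept because a replicate shares its chemistry, per the labels, and its femurs were paired by the study. Deviations of CONT and ABL libraries from their condition means correlated at 0.730 in reticular, 0.444 in all mesenchymal and 0.477 in other mesenchymal cells. With 2 pairs this number is the same for both by construction. *Xist* differs between femurs of replicate 2, so pairing by mouse may not hold there. Intervals of levels and shares, and floors, cover counting error only. The SE, intervals and p of the fits borrow variance from other genes and do not measure the spread between 2 replicates.

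Named were the 10 genes, up to 5 rises and 5 falls of each further list that passed in the same direction in both replicates, the 5 genes most like *H19*, and the 5 leading genes of a cluster. Genes named beside *H19* and *Mest* in single cells, and clusters singled out, were chosen after their values were seen. The members and lists were chosen with earlier results of these data known. The tests were tried on simulated data.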

Additional observations from a re-analysis of the deposited data

Results flagged for a closer look

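The sign of the log2 ratio was opposite in reticular and other mesenchymal cells for 3 genes, in both replicates. How many of all genes had such opposite signs was not counted, so the count of 3 does not set these genes apart. In other mesenchymal cells of replicate 1 the ratio was small, at -0.11 for *H19*, -0.05 for *Igf2* and -0.20 for *Plagl1*. In replicate 2 it was -1.26, -4.42 and -0.44 in the same order. None of the 3 genes passed the test in other mesenchymal cells, so a fall there was not shown. The ABL effect in reticular cells minus that in other mesenchymal cells was 4.17 (log2) for *H19*, a difference that was not tested. For *Igf2* it was 4.94 (adjusted p = 0.685, edgeR interaction) and for *Plagl1* 0.51 (adjusted p = 0.683), neither past the threshold.

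Droplets of at most 300 UMIs, which hold free RNA and are none of the classes tested, had more of 6 genes in ABL than in CONT of both replicates. How many of all genes were higher in these droplets was not counted, so the count of 6 does not set imprinted genes apart. *H19* stood at 94.0 CPM in ABL of replicate 1 and 181 CPM in ABL of replicate 2, against 15.4 and 39.96 CPM in CONT. *Igf2* stood at 54.9 and 54.1 CPM against 6.15 and 33.3 CPM, and *Mest* at 31.3 and 64.0 CPM against 4.16 and 3.33 CPM. *Meg3* stood at 17.9 and 223 CPM against 5.49 and 15.9 CPM. *Peg3* stood at 16.7 and 55.1 CPM against 6.72 and 32.0 CPM, and *Igf2r* at 60.8 and 76.8 CPM against 25.8 and 55.6 CPM. Free RNA was estimated at 8.38% of reticular UMIs in CONT and 7.48% in ABL for replicate 1, and 0.799% and 0.952% in replicate 2.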

How the results depend on the processing

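No direction reversed in the settings run for *H19* where it was described without a test, or for a gene that passed in either setting compared. Genes that did not pass were not held to this, and *Meg3*, *Peg3* and *Ndn* in reticular cells differed in sign between replicates. So did *Igf2* in all mesenchymal cells. Of the counts, shares and likeness under each setting, 51 stayed near the reported value and 34 did not. Without the replicate block, edgeR called 0 genes and 0 of the 10 genes in every class. At an unadjusted p under 0.05 it had 390 in reticular, 1201 in all mesenchymal, 484 in other mesenchymal, 139 in erythroid, 935 in monocyte or macrophage and 86 in neutrophil cells. In reticular cells the 613 genes called became 179 with DESeq2, 90 in cells with a Y-linked and no *Xist* UMI (1 of the 10 genes), 1050 in cells with an *Adipoq* UMI and 320 without fibroblast-marker cells, a setting added after seeing the data. Without TMM the split was 410 higher and 211 lower, against 306 and 307. In all mesenchymal cells 497 became 1071 without TMM, 1097 without the filter on low counts, 311 not robust (232 higher, 79 lower), 1149 with stricter cells and 1276 in Y-linked cells (626 higher, 650 lower), against 312 and 185. In other mesenchymal cells 63 became 122 with DESeq2 (36 higher, 86 lower), 182 without TMM (53 and 129), 440 without the filter (2 of the 10 genes) and 423 at resolution 0.4 (1 of the 10), against 27 and 36. For the difference between classes, 190 became 0 without TMM, where the median gene shifted to 0.20, 490 without the filter, 116 not robust and 72 with DESeq2 (with 1 of the 10 genes passing in both of these last settings). The mean log2 ratio of *Igf2* shares was 2.04, 2.55 thinned to 1000 UMIs and 1.64 not thinned. With log2(CPM + 1), 3 of the 5 genes most like *H19* were shared. *H19* over all mesenchymal cells moved from 2.13 to 4.27 in Y-linked cells. The cause was not tested. With 1 replicate left out no residual degrees of freedom remained, and the log2 ratio in reticular cells was 2.71 to 4.32 for *H19*, 2.49 to 2.81 for *Igf2* and 1.80 to 3.91 for *Mest*. Depth limits *Dlk1* most, with at most 5 UMIs in reticular cells of a library.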
